A study of Mus musculus with 20 samples.

Results

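Distal stretches of the mouse genome that carried the active enhancer mark H3K27ac in embryonic stem (ES) cells and carried it again in neural progenitor cells (NPCs) are described here. The genome was divided into bins of 1 kb on the 19 autosomes, and levels are given in reads per 1000000 (RPM) of the distinct reads of a library. A bin counted as distal where H3K4me3, the mark of active promoters, stayed below 1.5 RPM in ES cells and liver in the bin and both its neighbours. Kept bins had H3K27ac of at least 2 RPM in each of 2 ES libraries and at least 2 times the ES histone H3 level plus 0.1 RPM. They also had at least 2 RPM in NPCs and below 0.7 RPM in liver. The rule found 1173 kept bins among 27571 bins that met its ES conditions, or 4.25%, out of 2275041 distal bins. They joined into 991 regions when bins within 1 kb of each other were merged. The contrast was 13321 lost bins, which met the same ES and liver conditions and had NPC H3K27ac below 0.7 RPM. A further 4573 bins lay between, at 0.7 to 2 RPM in NPCs, and 5574 bins were acetylated in NPCs alone, with H3K27ac below 0.7 RPM in both ES libraries and in liver.

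The series held 20 libraries in 16 groups, made by chromatin immunoprecipitation and sequencing (ChIP-seq), in which DNA held by a modified histone or by a protein is recovered with an antibody against it. ES cells labelled 129JAE-C57/B6, grown as the V6.5 (C57BL/6-129) line, gave H3K27ac, p300, H3, H3K4me3, whole cell extract (WCE, input DNA with no antibody step) and 1 of the 3 H3K4me1 libraries. The second H3K4me1 library came from ES cells of the same background with the dox-inducible 4F2A transgene, and the third from inbred C57/B6 ES cells. NPCs, labelled as 129JAE-C57/B6 derived, came from embryoid bodies aged 4 days, which were selected for 5 to 7 days in ITSFn medium and then grown with FGF and EGF. They gave 1 H3K27ac and 1 Rfx1 library. Liver was perfused whole tissue, mouse embryonic fibroblasts (MEFs) gave H3K4me1 and H3, and the induced pluripotent stem (iPS) cells had been made from MEFs. ES and iPS cells were grown on feeder MEFs and taken off them for 1 or 2 passages before fixation. Only ES H3K4me1 (3 libraries), ES H3K27ac and ES p300 (2 libraries each) had more than 1 library. Nothing in the labels says that these came from separate cultures in every case, so the spread of the H3K27ac and p300 libraries may be technical. The spread behind the limma p-values is that of the 3 ES H3K4me1 libraries. These differ in transgene or strain, so line and technical differences cannot be told apart in it.

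Enhancers are stretches of DNA that bind transcription factors and raise the transcription of genes at a distance. H3K4me1 marks enhancers whether or not they are in use, and H3K27ac, which p300 and its relative CBP deposit, marks those in use. As ES cells become neural progenitors, many of their enhancers lose acetylation and others gain it. Rfx1 belongs to the regulatory factor X family of transcription factors, which bind the X-box motif and are known for their part in the genes of cilia.

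Libraries held 2.45 to 18.2 M reads (1 M is 1000000 reads). NPC H3K27ac kept 6.81 M distinct reads on the autosomes, the ES H3K27ac libraries 8.77 and 8.4 M and liver H3K27ac 5.05 M. A level of 2 RPM thus stood for 13.6 reads in the NPC library, and 0.7 RPM stood for 4.77 reads there and 3.53 in liver. The NPC Rfx1 library was the thinnest, with 0.694 M distinct reads after 72.5% of its reads were found to repeat a position, so that 1 read was worth 1.44 RPM. The ES H3K4me3 library was also thin, at 2.32 M distinct reads, and its 1.5 RPM limit stood for 3.48 reads. Promoters active in NPCs or MEFs alone can be among the distal bins, since no H3K4me3 library of those cells was used here. Positions fitted the lengths of the mm8 mouse assembly on 19 of 19 autosomes. An annotation of that build was not used here, so regions are named by their coordinates as the files give them and carry no gene names.

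Kept bins were short and scattered. Of the 991 regions, 838 (84.6%) were a single bin, 129 held 2 bins, 20 held 3, 3 held 4, and 1 held 5. The number per chromosome ran from 22 on chromosome 19 to 131 on chromosome 11, and the kept share of bins meeting the ES conditions ran from 2.89% on chromosome 4 to 6.63% on chromosome 16. All bins meeting the ES conditions joined into 14455 regions, 970 of which held a kept bin. Of those 970, 469 (48.4%) were kept throughout and 241 (24.8%) also held a lost bin. The 349 such regions with at least 3 bins held 1757 bins, of which 28.6% were kept, 25.4% were intermediate in NPCs and 25.8% were lost. Runs of neighbouring bins at 1 RPM or more were taken through the bin of each region with the most ES H3K27ac. At kept regions they spanned a median of 6 and 5 kb in the ES H3K27ac libraries and 2 kb in NPCs. Lost regions had the same ES medians of 6 and 5 kb. By this median the acetylated run at kept regions was shorter in NPCs than in ES cells, in libraries of unlike depth and with the starting bin chosen by ES level. Regions acetylated in NPCs alone, with the run taken through their highest NPC bin, had the same NPC median of 2 kb.

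The kept bins were chosen by H3K27ac in ES cells, NPCs and liver, ES H3 and H3K4me3, so these levels are given as a description. NPC H3K27ac at kept bins ran from 2.06 to 57 RPM, with a median of 3.23 and a mean of 5.12 RPM. It averaged 0.253 RPM at lost bins. ES H3K27ac averaged 4.81 and 5.12 RPM at kept bins in its 2 libraries and 4.49 and 4.03 RPM at lost bins. The balance of the 2 ES libraries differed between the classes: the second library was above the first in 56.5% of kept bins and in 35.9% of lost bins. Liver H3K27ac had 0 reads in 318 of the kept bins. NPC H3K27ac was above both ES libraries in 413 kept bins and below both in 577. Over the 1173 kept bins Spearman's rho of NPC with ES H3K27ac was 0.014 and -0.003, and that of the 2 ES libraries with each other was 0.751. The rule cut all 3 libraries at 2 RPM, so nothing about how the levels are related is read from these values.

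The NPC threshold passed through a crowded range. At the lowest passing level, 2.06 RPM or 14 reads, there were 112 kept bins, and 142 bins missed only by 1 read, at 1.91 RPM. The bins named here are the first of each by position. Just inside lay chr1:39850001-39851000, with 2.97 and 3.45 RPM of ES H3K27ac, 5.39 RPM of MEF H3K4me1 and p300 of 2.73 and 3.28 RPM. The bins chr1:90537001-90538000 and chr1:120808001-120809000 also passed with 14 reads and had ES H3K27ac of 2.40 and 3.21 RPM, and of 4.11 and 3.69 RPM. Just outside lay chr1:88138001-88139000, with far higher ES H3K27ac of 10.5 and 11.8 RPM but 0.140 RPM of MEF H3K4me1. The other bins just outside were chr1:89622001-89623000, with ES H3K27ac of 2.05 and 2.26 RPM, and chr1:90923001-90924000, with 6.27 and 6.55 RPM. The ES levels of the 3 bins inside, 2.40 to 4.11 RPM, lay within the range of the 3 bins outside.

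The strongest kept regions show the range of forms. These 6 regions were those with the largest summed acetylation, taking in each bin the lower of the ES and NPC level. At chr11:116145001-116148000 (3 bins) ES H3K27ac averaged 9.32 and 10.9 RPM, NPC 20.3 and liver 0.198 RPM. NPC acetylation was above both ES libraries in this region, which had p300 of 4.60 and 2.79 RPM in ES cells and 7 Rfx1 reads. At chr5:115696001-115700000 (4 bins) the ES libraries had 7.30 and 10.1 RPM and NPCs 14.1 RPM, and this region held 223 Rfx1 reads. The longest kept region, chr9:13447001-13452000 (5 bins), had ES H3K27ac of 5.57 and 4.55 RPM, NPC 7.78 RPM, p300 of 4.57 and 5.00 RPM, and 0 Rfx1 reads. The chromosome 5 and chromosome 9 regions were thus both strongly acetylated in both cell types and far apart in Rfx1. At chr7:142821001-142824000 (3 bins) the ES libraries had 7.72 and 7.50 RPM and NPCs 9.05 RPM, with H3K4me1 of 7.52 ± 2.05 RPM (SD, n = 3) in ES cells and 8.68 RPM in MEFs. At chr2:30565001-30567000 (2 bins) NPC H3K27ac of 19.5 RPM was above ES levels of 7.81 and 7.79 RPM, and MEF H3K4me1 of 10.3 RPM was above the ES value of 5.15 ± 1.1 RPM (SD, n = 3). At chr10:39223001-39225000 (2 bins) the ES libraries had 7.87 and 7.56 RPM and NPCs 10.9 RPM, against 0 reads in liver and 1.65 RPM of MEF H3K4me1. In all 6 regions the NPC mean was above both ES libraries, and liver stayed at or below 0.396 RPM. The ranking used the ES and NPC levels and the rule limited liver, so this only describes the 6 regions. Over all kept bins NPC H3K27ac, from 1 library, was above both ES libraries in 413 and below both in 577.

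The 3 strongest lost regions were longer, with 10 to 18 bins. The lost region with the most ES acetylation, chr2:20566001-20586000 (18 bins), had ES H3K27ac of 9.89 and 7.12 RPM and NPC H3K27ac of 0.0816 RPM, from 10 reads over all its bins. At chr17:31534001-31545000 (10 bins) the ES libraries had 12.3 and 10.5 RPM and NPCs 0.220 RPM. At chr6:125402001-125423000 (16 bins) they had 6.97 and 5.50 RPM and NPCs 0.266 RPM. ES H3K4me1 averaged 4.26 to 4.84 RPM in these 3 regions and 4.52 to 7.52 RPM in the 6 kept regions above. MEF H3K4me1 was 0.932 to 1.39 RPM in the lost regions, below all 6 of the kept ones.

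H3K4me1 in ES cells did not separate kept from lost bins. The kept bins averaged 3.12, 3.70 and 4.12 RPM in the 3 ES libraries, and the lost bins 3.28, 3.53 and 3.83 RPM. The kept level over the lost level was 0.950 to 1.08, with a mean of 1.03 ± 0.0663 (SD, n = 3), lower in the first library and higher in the others. An exact two-sided sign-flip permutation test over the 3 libraries gave p = 0.75, where 0.25 is the smallest p that 3 libraries allow. Within ranges of ES H3K27ac from 2 to 3 up to at least 8 RPM the ratio lay between 0.897 and 1.06. H3K4me1 had at least 3 reads and was at least 2 times the ES H3 level plus 0.1 RPM in all 3 ES libraries at 982 kept bins (83.7%), at 85.5% of lost bins and at 4.51% of all distal bins. Most kept bins thus carried the enhancer mark that the rule had not used, and they did so no more often than lost bins. In iPS cells, where ES H3 stood in as background, 90.5% of kept bins and 90.1% of lost bins passed the same fold, against 6.6% of all distal bins. Bins acetylated in NPCs alone passed at 6.10% in ES cells and 9.28% in iPS cells.

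**Figure D1:**
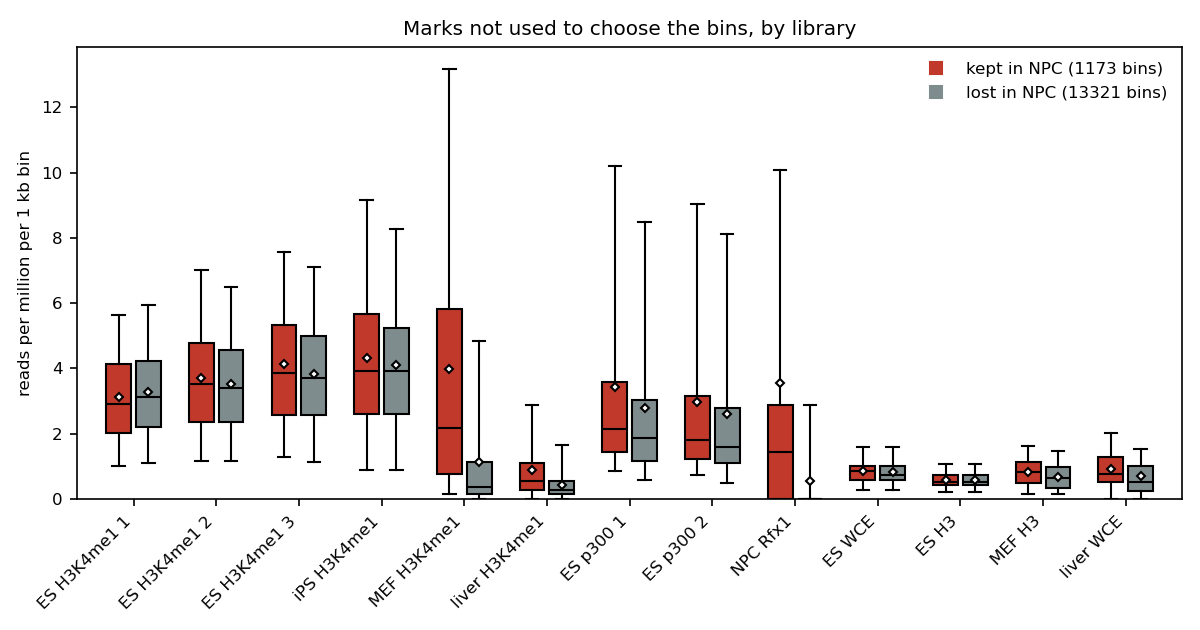
Levels of marks that the rule did not use, and of background libraries, in RPM per 1 kb bin (vertical axis) at 1173 kept and 13321 lost bins, by library (horizontal axis). Boxes span the quartiles with the median as a line, whiskers run from the 5th to the 95th percentile and diamonds are means. The ES and iPS boxes nearly coincide, while the MEF H3K4me1 median is 2.17 RPM at kept and 0.350 RPM at lost bins.

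The acetyltransferase p300 was somewhat more frequent and slightly higher at kept bins than at lost ones. Its kept bins averaged 3.44 and 2.97 RPM in the 2 ES libraries, and its lost bins 2.79 and 2.61 RPM. Kept over lost was 1.23 and 1.14, a mean of 1.18 ± 0.0641 (SD, n = 2), higher in both libraries. An exact sign-flip permutation test gives p = 0.5 here, the smallest that 2 libraries allow. Within ranges of ES H3K27ac the ratio was 1.03 to 1.2 in the first library and 0.937 to 1.15 in the second, so kept bins were not above lost ones in every range. p300 was at least 2 times the WCE level plus 0.1 RPM in both libraries at 562 kept bins, or 47.9% (Wilson 95% interval 45.1 to 50.8%), and at 41.9% of lost bins. The same held at 3.17% of all distal bins and 5.38% of bins acetylated in NPCs alone. Intervals here cover counting error only, and bins are not replicates of a condition. Counted in the first library alone the kept share was 63.3% (6.47% of all distal bins), and in the second 52.7% (6.93%).

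The kept bins included the strongest p300 signal of the distal genome. The bin chr10:84969001-84970000 had 56.5 and 51.4 RPM of p300, the highest of all 2275041 distal bins in either library. Its ES H3K27ac was 23.8 and 19.3 RPM, its NPC H3K27ac 6.75 RPM, and it had 0 Rfx1 reads. H3K4me1 there was 3.89 ± 0.677 RPM (SD, n = 3) in ES cells and 0.280 RPM in MEFs, lower by limma with a log2 difference of -2.73 (SE 0.39) and an adjusted p = 0.000399. The next bins by p300 were chr6:55721001-55722000, with 30.5 and 35.3 RPM, chr13:51933001-51934000, with 33.5 and 28.4 RPM, and chr12:110920001-110921000, with 29.7 and 29.5 RPM. NPC H3K27ac was 7.34, 2.94 and 2.06 RPM at these bins in that order. The MEF against ES difference in H3K4me1 did not pass limma at these 3 bins, with adjusted p of 0.767, 0.427 and 0.0641 in the same order. The highest ES H3K27ac of any distal bin in the first library, 37.3 RPM, also fell in a kept bin, chr12:4364001-4365000. That bin had 31.8 RPM in the second library and 2.79 RPM in NPCs, and was singled out after its values were seen.

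MEFs set kept bins apart from lost ones, although no MEF library entered the rule. MEF H3K4me1 averaged 3.97 RPM at kept bins and 1.12 RPM at lost bins, a ratio of 3.55, with medians of 2.17 and 0.350 RPM. Bins acetylated in NPCs alone averaged 1.5 RPM. The ratio of kept to lost was 3.74, 3.41, 3.49 and 3.32 in bins with mean ES H3K27ac of 2 to 3, 3 to 5, 5 to 8 and at least 8 RPM, similar over the whole range of ES acetylation. MEF H3K4me1 was at least 2 times the MEF H3 level plus 0.1 RPM at 674 kept bins, or 57.5% (Wilson 95% interval 54.6 to 60.3%). The shares were 34.1% of intermediate bins, 21.6% of lost bins, 35.3% of bins acetylated in NPCs alone and 6.68% of all distal bins. Bins acetylated in ES cells, NPCs and liver alike (670 bins) passed at 82.2%, with a mean of 7.69 RPM, above the kept bins. The kept bins were spread widely: 23.2% had MEF H3K4me1 below 0.7 RPM and 28.3% had at least 5 RPM, against 63.7% and 4.66% of lost bins. MEF H3, the background of these cells, was 0.824 RPM at kept and 0.685 RPM at lost bins, a ratio of 1.2, and its part in the difference was not tested. The MEF values come from a single library and carry no replicate error.

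Tested bin by bin against the spread of the 3 ES libraries, kept bins differed in MEF H3K4me1 about as often as all distal bins tested, though not under every alternative. Of 1173 kept bins, 1164 passed the filter of 30 reads summed over the 6 H3K4me1 libraries. MEF reads counted toward that sum, so a bin could pass through MEFs alone. By limma with Benjamini-Hochberg adjustment over 318588 distal bins, H3K4me1 was higher in MEFs than in ES cells at 294 kept bins (25.3%), beside 29.1% of all bins tested. It was lower in MEFs at 370 kept bins (31.8%), beside 30.5% of all bins tested. Neither call was made at 500 kept bins (43.0%), beside 40.4% of all bins tested. The kept shares thus lay near the background in both directions in this fit, with a median log2 difference of -0.15 at kept bins and -0.15 over all bins tested. By limma-voom 32.6% of kept bins were lower in MEFs, beside 23.2% of all bins, and 30.7% were higher, beside 32.8%. Without the first ES H3K4me1 library 27.8% were lower, beside 22.7%, and 18.6% were higher, beside 23.9%. At lost bins H3K4me1 was lower in MEFs at 73.7% and higher at 4.09%, with a median of -2.13, and intermediate bins fell between, at 50.7% and 12.2%. Scaling by library size alone moved the median of all bins to -0.39. The kept calls became 216 higher (18.6%, beside 24.7% of all bins) and 409 lower (35.1%, beside 33.3%). Of the kept calls 34.6%, and not 44.3%, were then higher in MEFs. With no filter on low bins no bin was called in either direction by limma, and 312 kept bins were higher and 333 lower at an unadjusted p under 0.05. Those unadjusted counts over all bins are not given here. Kept bins higher in MEFs had 9.92 RPM of MEF H3K4me1 on average and those lower in MEFs 0.659 RPM, which follows from how they were called. NPC H3K27ac averaged 6.13 RPM at kept bins higher in MEFs, 4.79 RPM at those lower and 4.79 RPM at those with neither call.

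**Figure D2:**
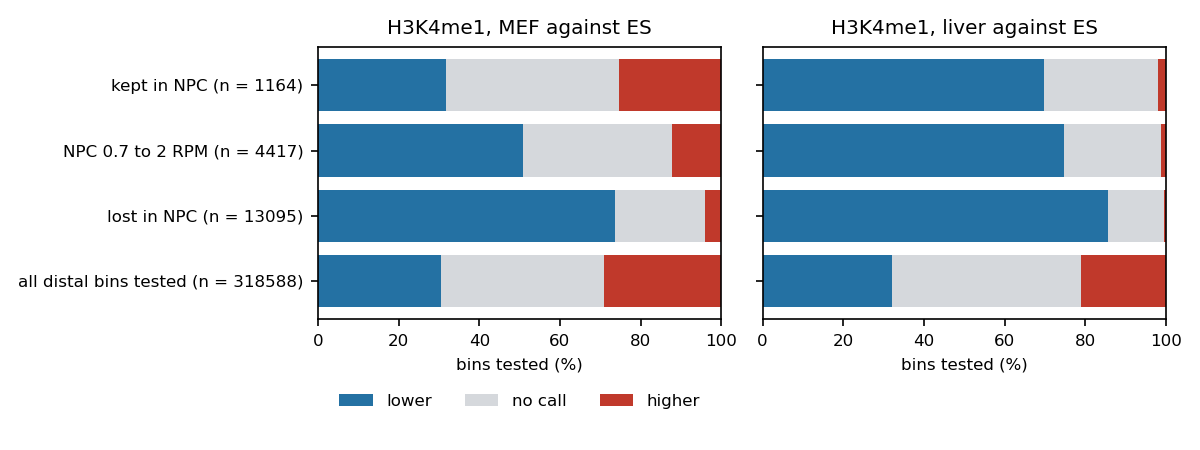
Percent of tested bins (horizontal axis) with H3K4me1 lower, not called or higher in MEFs (left) or liver (right) than in ES cells by limma at an adjusted p of 0.05, for kept, intermediate and lost bins and for all 318588 distal bins tested. In MEFs the kept bins, with 31.8% lower and 25.3% higher, resemble all bins, and 73.7% of lost bins are lower.

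Kept bins at both ends of these differences are given here by level. At chr19:16439001-16440000 ES H3K4me1 was 0.503, 0.426 and 0 RPM and MEF H3K4me1 was 9.59 RPM, with ES H3K27ac of 2.97 and 3.45 RPM and NPC H3K27ac of 3.08 RPM. Its log2 difference of MEFs from ES cells was 4.52 with SE 0.66 by limma. It passed the filter only through MEFs, with 137 MEF reads and 5, 4, 0, 0 and 12 in the other libraries. The difference is thus given as a level, not as a test result. This bin carried acetylation in ES cells with almost no H3K4me1 there, and its WCE level of 2.01 RPM was high. At chr12:81299001-81300000 the ES libraries had 0.402, 0.319 and 0.484 RPM and MEFs 8.68 RPM, or 4.06 higher on the log2 scale with SE 0.45 by limma. This bin too passed the filter only through MEFs, with 124 MEF reads and 4, 3, 3, 1 and 17 in the other libraries. NPC H3K27ac there was 8.37 RPM, above the ES levels of 2.05 and 2.74 RPM. The bins chr5:125334001-125335000 and chr5:114668001-114669000 had MEF H3K4me1 of 12.2 and 17.6 RPM, against ES means of 0.687 ± 0.248 and 1.36 ± 0.424 RPM (SD, n = 3). The first of these also passed the filter only through MEFs, with 174 MEF reads and 4, 8, 5, 3 and 4 in the other libraries. All 4 of these bins passed the ES conditions with ES H3K27ac of 2.05 to 7.02 RPM, and their p300 was 0.485 to 1.72 RPM, below the kept mean. The highest MEF H3K4me1 of any distal bin, 35.6 RPM, also lay in a kept bin, chr8:123269001-123270000, with ES H3K4me1 of 3.92, 4.58 and 7.26 RPM and NPC H3K27ac of 20.1 RPM. That bin was singled out after its values were seen.

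At the other end, chr4:126695001-126696000 had ES H3K4me1 of 6.94, 7.99 and 7.26 RPM and 0 reads in MEFs. Set against a floor of 3 reads in the MEF library, 0.210 RPM, H3K4me1 was at least 35.2-fold lower in MEFs (limma adjusted p = 0.0002). At chr1:4960001-4961000 and chr17:34679001-34680000, also with 0 MEF reads, it was at least 23.9-fold and 23.5-fold lower on the same floor. At chr11:60820001-60821000 the ES libraries had 5.53, 9.58 and 8.39 RPM and MEFs 1 read. The ES mean was 112 times the MEF level there, with an exact Poisson 95% interval of 20.1 to 4419 from that read. Acetylation in NPCs at these 4 bins was 2.5, 5.87, 2.06 and 3.23 RPM in the order given, and all had 0 Rfx1 reads. p300 reached 22.6 and 22.7 RPM in the chromosome 1 bin and 24.4 and 18.9 RPM in the chromosome 11 bin, and was under 3 RPM in the others. A region could thus be acetylated in NPCs while its H3K4me1 in MEFs stood at or near 0.

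In liver, where the rule required low H3K27ac, most kept bins had less H3K4me1 than in ES cells. Liver H3K4me1 averaged 0.892 RPM at kept bins and 0.439 RPM at lost bins, a ratio of 2.03, and was at least 2 times the liver H3 level plus 0.1 RPM at 263 kept bins (22.4%). The same held at 9.97% of lost bins, 12.3% of bins acetylated in NPCs alone and 6.08% of all distal bins. By limma it was lower in liver than in ES cells at 813 of 1164 kept bins (69.8%), beside 32.1% of all bins tested, and at 85.5% of lost bins. It was higher in liver at 23 kept bins (1.98%), beside 21.2% of all bins tested. Without the first ES H3K4me1 library 13 kept bins (1.12%) were higher in liver, beside 16.8% of all bins, and without the 4F2A library 14 (1.2%), beside 15.2%. By limma-voom 256 kept bins (22%) were lower, beside 2.45% of all bins. With no filter on low bins none was called, with 852 lower and 14 higher at an unadjusted p under 0.05. The unadjusted counts over all bins are not given here. The median log2 difference was -1.67 at kept bins, -2.47 at lost bins and -0.40 over all bins. The rule removed bins acetylated in liver, so low liver H3K4me1 is not independent of it, whereas the gap between kept and lost bins concerns 2 classes with the same liver limit. Liver H3K27ac within that limit was still higher at kept bins, 0.261 against 0.186 RPM, and liver WCE was 0.925 against 0.704 RPM, a ratio of 1.31, and their part in the liver values was not tested. Liver H3K4me1 calls share the 3 ES libraries with those of MEFs, so both sets of calls are given side by side only.

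In iPS cells, which were made from MEFs, H3K4me1 at kept bins lay near its level in ES cells. iPS H3K4me1 averaged 4.31 RPM at kept and 4.10 RPM at lost bins, near the third ES library. No kept bin was called higher or lower in iPS than in ES cells by limma, beside 0% of all bins tested in each direction. At an unadjusted p under 0.05 by limma, 62 of 1164 kept bins were higher and 105 lower, beside 9539 and 42236 of 318588 bins tested. The smallest adjusted p at kept bins was 0.0610. limma-voom also called 0, beside 0% of all bins, with 56 higher and 3 lower at an unadjusted p under 0.05. The unadjusted limma-voom counts over all bins are not given here. Without the inbred C57/B6 ES library 33 kept bins (2.84%) were lower and 8 (0.687%) higher in iPS cells, beside 5.67% and 0.465% of all bins tested. The iPS library had 2.29 M distinct reads, so 1 read was worth 0.436 RPM.

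Rfx1 in NPCs, which the rule did not use, was higher at kept than at lost bins. Rfx1 averaged 3.54 RPM at kept bins, 0.561 RPM at lost bins and 1.16 RPM at bins acetylated in NPCs alone. It was at least 2 times the ES WCE level plus 0.1 RPM, with at least 3 reads, at 259 kept bins, or 22.1% (Wilson 95% interval 19.8 to 24.5%). In kept, intermediate, lost and NPC-alone bins the minimum of 3 reads set every call, as no bin with 3 reads missed the fold. The share was 14.1% of intermediate bins, 3.21% of lost bins, 6.26% of bins acetylated in NPCs alone and 0.638% of all distal bins. The ratio of kept to lost was 6.30, and it was 6.02, 5.51 and 6.97 in the lower ranges of ES H3K27ac and 8.68 in bins of at least 8 RPM. Most kept bins nonetheless had few reads: 45% had 0 Rfx1 reads, against 76.4% of lost bins and 70.3% of bins acetylated in NPCs alone. A few bins held much of the signal. The 41 kept bins with at least 10 reads (3.50%) held 47.7% of all Rfx1 reads in kept bins. There were 5 such lost bins (0.0375%) and 48 such bins acetylated in NPCs alone (0.861%). The share of all distal bins with at least 10 reads is not given here. Without bins of at least 10 reads the means were 1.92 RPM at kept, 0.552 RPM at lost and 0.775 RPM at NPC-alone bins. With repeated reads counted the kept share was 38.2%. This was 1 shallow library, and as no NPC background library was used here, the part of NPC background in these values was not tested.

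The 3 kept regions with the highest Rfx1 signal carried strong NPC acetylation as well. At chr5:115697001-115698000 there were 211 Rfx1 reads (304 RPM), ES H3K27ac of 9.47 and 18.8 RPM and NPC H3K27ac of 44.5 RPM. MEF H3K4me1 was 9.52 RPM there against 2.24 ± 0.395 RPM (SD, n = 3) in ES cells, or 2.29 higher on the log2 scale with SE 0.36 (adjusted p = 0.000579 by limma). At chr2:166370001-166371000 there were 139 Rfx1 reads (200.3 RPM), and NPC H3K27ac was 16.6 RPM against 5.25 and 7.85 RPM in ES cells. H3K4me1 was lower in MEFs at this bin, 0.490 RPM against 5.13 ± 0.438 RPM in ES cells (SD, n = 3, limma adjusted p = 0.000289). At chr9:43823001-43824000 there were 102 Rfx1 reads (147 RPM), and NPC H3K27ac of 21.9 RPM was well above the ES levels of 2.74 and 3.33 RPM. MEF H3K4me1 there was 14.2 RPM, against 3.58 ± 0.836 RPM in ES cells (SD, n = 3, limma adjusted p = 0.000523). High Rfx1 thus occurred both where MEF H3K4me1 was above ES cells and where it was below. p300 in ES cells was 2.01 to 9.77 RPM at these 3 bins, far under the highest kept bins.

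Grading all bins that met the ES and liver conditions by NPC H3K27ac showed shares that differed already well under the threshold. The Rfx1 share was 1.73% below 0.2 RPM, 4.60% from 0.2 to 0.7, 11.3% from 0.7 to 1.2 and 21.3% from 1.2 to 2 RPM. Within the kept range it was 21.0%, 19.3% and 22.9% up to 10 RPM and 33.6% above. Bins not acetylated in ES cells had lower Rfx1 shares at the same NPC levels, 4.42% at 2 to 3 RPM and 16.3% at 10 RPM or more. The MEF H3K4me1 share went from 17.9% below 0.2 RPM to 38.5% just under the threshold, 49.2% just over it and 74.3% at 10 RPM or more. In bins acetylated in NPCs alone it was 34.0% to 41.7%. The p300 share in ES cells first ran down, from 43.6% to 35.3% just under the threshold, and then up to 58.4% at 10 RPM or more. WCE was 0.844 RPM at kept bins and 0.568 RPM at NPC-alone bins, and MEF H3 was 0.824 and 0.576 RPM. These shares carry counting error only.

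**Figure D3:**
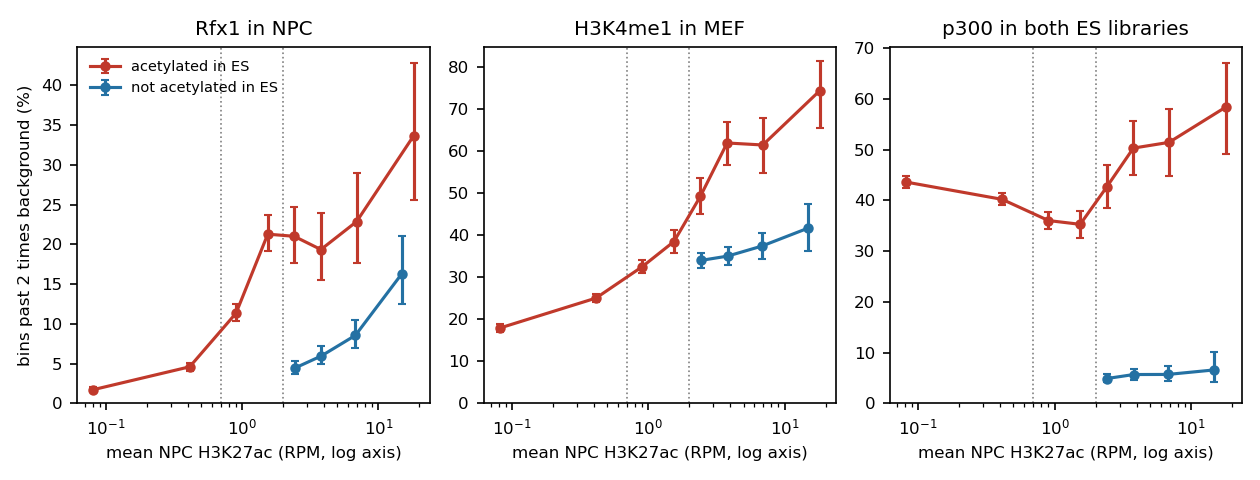
Percent of bins past 2 times background (vertical axis) for Rfx1 in NPCs, H3K4me1 in MEFs and p300 in both ES libraries, against mean NPC H3K27ac in RPM (horizontal log axis), with Wilson 95% intervals as bars. Red points are bins meeting the ES and liver conditions, blue points bins acetylated in NPCs alone, and dotted lines mark 0.7 and 2 RPM. Red Rfx1 points go from 1.73% to 21.3% under the kept threshold, stay at 19.3% to 22.9% up to 10 RPM and end at 33.6%, and red p300 points dip to 35.3% before reaching 58.4%.

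How the 3 readouts fell together within kept bins is given as a description. Whether their overlap differed from what the single shares would give was not tested. Of the 1173 kept bins, 215 (18.3%) passed for none of p300, Rfx1 and MEF H3K4me1, and 86 (7.33%) passed for all. Of the lost bins 44.8% passed for none and 0.308% for all, and of the bins acetylated in NPCs alone 57.8% and 0.251%. Joint shares over all distal bins are not given here. Singly, p300, Rfx1 and MEF H3K4me1 passed at 3.17%, 0.638% and 6.68% of all distal bins. Rfx1 passed at 24.8% of kept bins with MEF H3K4me1 and 18.4% of those without, and at 20.3% of kept bins with p300 and 23.7% of those without. MEF H3K4me1 passed at 60.9% of kept bins with p300 and 54.3% of those without. Over the 1173 bins Spearman's rho of Rfx1 with p300 was -0.039 and -0.102, and of NPC H3K27ac with MEF H3K4me1 and with Rfx1 it was 0.159 and 0.077. With p300 in the 2 ES libraries, NPC H3K27ac gave 0.114 and 0.145. These are descriptions over bins that share libraries and depth, and in the sparse Rfx1 counts a weak coefficient shows little. For comparison, the p300 libraries correlated at 0.792 and ES H3K4me1 libraries at 0.697 to 0.802.

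Centring each region on the p300 maximum of the first ES library showed the marks at finer scale. The centre was taken within 100 bp of the maximum and the flank at 400 to 800 bp. The maximum was sought in the region's bin with the most ES H3K27ac, and the bin's middle was used where no p300 reads lay. Of these bins in kept regions 49.4% passed for p300 in both libraries, so a maximum need not be a p300 site. In the second p300 library the centre of kept regions stood 3.90 times over the flank, and that of lost regions 3.60 times. NPC H3K27ac, which chose the kept bins, was 6.63 against 3.25 RPM per kb in kept regions, or 2.04 times, and 1.33 times in lost ones. ES H3K27ac was 1.59 and 1.75 times over its flanks in kept regions and 1.63 and 1.74 times in lost ones. Rfx1 was 5.12 RPM per kb at the centre of kept regions and 1.87 in their flanks, or 2.74 times, and 1.85 times over the flanks in lost regions. In regions whose window held fewer than 10 Rfx1 reads it was 2.56 times in 806 kept and 1.90 times in 8029 lost ones. MEF H3K4me1 was 4.83 at the centre and 2.98 in the flanks of kept regions, or 1.62 times, and 1.60 times in lost regions at a lower level of 1.62 RPM per kb. WCE stood 1.14 times over its flanks there in kept regions and 1.29 times in lost ones. The centre of mass of H3K27ac over 3000 bp differed by a median of 85.4 bp between the 2 ES libraries and by 179 and 164 bp between each of them and NPCs. It was over 500 bp apart at 0% of kept regions for the ES pair and at 7.47% and 7.67% for the pairs with NPCs. The rule required both cell types to be acetylated in the same bin, which bounds these distances.

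**Figure D4:**
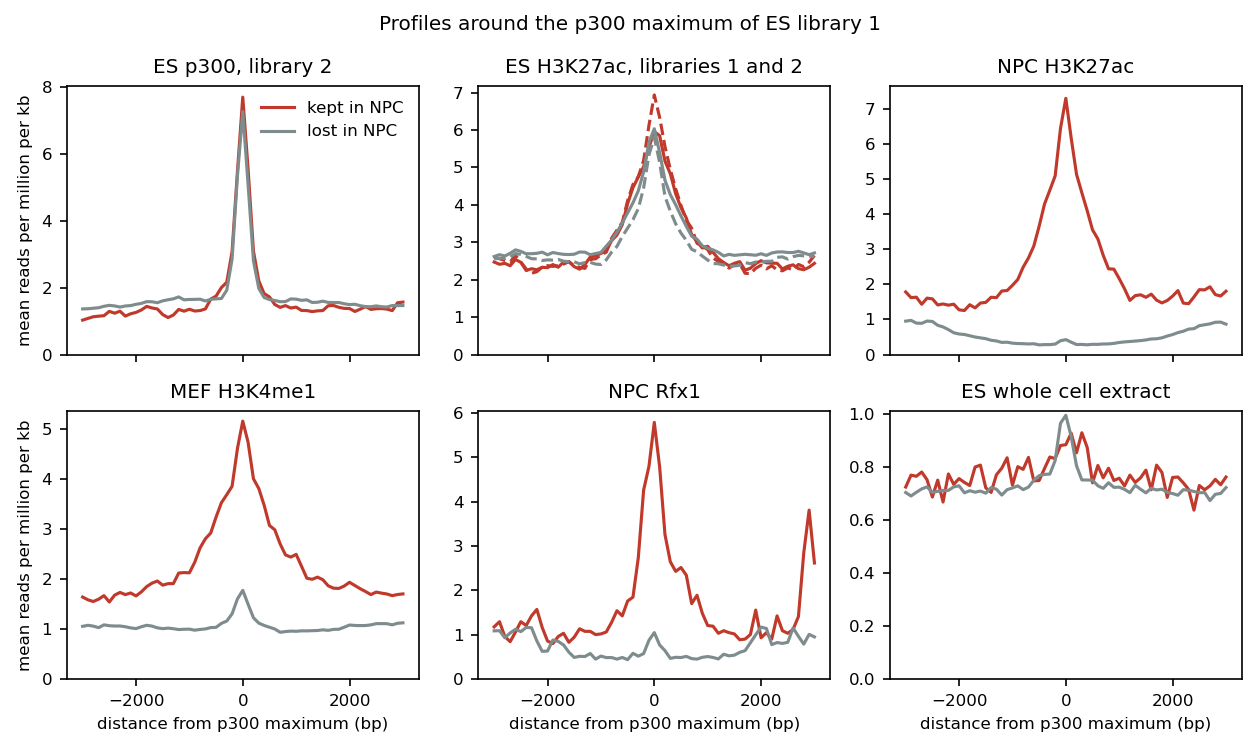
Mean signal in RPM per kb (vertical axes) against distance in bp from the p300 maximum of ES library 1 (horizontal axes), for 991 kept and 8362 lost regions, with the second ES H3K27ac library dashed. In kept regions NPC H3K27ac, MEF H3K4me1 and Rfx1 peak at the p300 maximum, with centres at 2.04, 1.62 and 2.74 times their flanks. The centre of whole cell extract is at 1.14 times its flanks, and its highest point lies at 300 bp.

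Kept bins lay as near to promoter marks of ES cells or liver as lost ones. The distance to the nearest bin with H3K4me3 of at least 3 RPM in ES cells or liver had a median of 13 kb at kept bins, 13 kb at intermediate bins and 14 kb at lost bins. It was 55 kb at bins acetylated in NPCs alone. Such a bin lay within 5 kb of 23.6% of kept bins, 23.7% of lost bins and 6.55% of NPC-alone bins. A stricter limit, added after the data were seen, allowed no bin of 1.5 RPM within 5 kb and less than 0.5 RPM in the bin itself. It left 375 kept bins, of which 19.2% passed for Rfx1 and 50.9% for p300. Distance to H3K4me3 of ES cells or liver did not separate kept from lost bins. No H3K4me3 library of NPCs was used here. The distance of bins acetylated in NPCs alone to promoters active in NPCs was therefore not tested.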

How the data were processed

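The 20 deposited files list aligned reads as signed positions by chromosome, which the authors left uncounted and unnormalised, with repeated positions present. Their unit is a position, not a count per feature, per the file headers, which name the sections U0 and U1. The aligner was not given in the sources used here, nor was the genome build. Per the labels' protocols, chromatin averaged 500 bp, libraries had 18 PCR cycles and inserts were 100 to 250 nt. The second p300 library names p301 in its description and p300 in its title, and was used as p300.

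Reads were counted once per position and strand, moved 100 bp toward the fragment centre and counted in 1 kb bins, so the counts and RPM are not the authors' values. Libraries of a group differed by more than sampling noise (chi-square per degree of freedom 1.34 to 2.54 over bins with at least 20 reads) and shared 1.33 to 5.31% of positions. H3K4me1 was tested with limma 3.58.1 (R 4.3.3; limma-trend, log2 CPM, prior count 2, trimmed mean of M-values, own code) on 318588 distal bins with at least 30 reads, with 2 residual degrees of freedom from the 3 ES libraries, and each single library was assumed to vary like an ES library. The procedure was tested on simulated data. H3K4me1 was set against H3 of the same cells (ES H3 for iPS), and p300 and Rfx1 against ES WCE, at 2-fold over background plus 0.1 RPM, with at least 3 reads for H3K4me1 and Rfx1. Intervals are Wilson 95% intervals, from Python 3.11.15 with scipy 1.17.1.

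The named regions were the 6 kept regions with the most summed acetylation, the 4 with the highest p300 bin and the 3 with the highest Rfx1 bin. They also included the 4 highest and 4 lowest MEF against ES differences past limma, the 3 strongest lost regions, and 3 bins on each side of the NPC threshold. Chromosome 18 was counted but not named. The rule gives the lost bins no liver limit, and the limit of the kept bins was used. The members, lists and rules were chosen with earlier results of these data known. Alternatives covered repeated reads, read shift, bin grid, scaling, thresholds, filters, the prior count, limma-voom, the liver limit and left-out libraries.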

Additional observations from a re-analysis of the deposited data

How the results depend on the processing

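No paired analysis was possible because the labels number only the ES H3K27ac and ES p300 libraries, which no test compares, and every other group but ES H3K4me1 is a single library. The 3 alternatives that limit bins further (no H3K4me3 nearby, WCE below 1.5 RPM, 1 bin per region) were chosen after seeing the data. The kept over lost ratio ran from 0.999 to 1.06 for ES H3K4me1, 2.81 to 4.01 for MEF H3K4me1 and 4.39 to 8.30 for Rfx1. The number of kept bins was 659 at NPC H3K27ac of at least 3 RPM and 375 with no H3K4me3 nearby, and 1403 to 1611 with 1 ES H3K27ac library in the rule. The Rfx1 share was 38.2% with repeated reads, 19.2% with no H3K4me3 nearby and 19.8% with low WCE. The p300 share was 52.0% at NPC H3K27ac of at least 3 RPM, 29.9% at 3-fold, 50.9% with no H3K4me3 nearby, 52.9% with low WCE, and 52.7 to 63.3% in 1 library. The p300 ratio was 1.09 with bins 500 bp later, 1.26 at NPC H3K27ac of at least 3 RPM, 1.27 with low WCE, and 1.14 to 1.23 in 1 library. With bins 500 bp later the share higher in liver was 1.08%, beside 21.2% of all bins, and the share lower in iPS cells 0.0834%, beside 0.0380%. The share higher in liver was 0.773% with library size alone, beside 15.1% of all bins, and 1.08% with no H3K4me3 nearby, beside 21.2%. The share lower in iPS cells was 1.37% with a prior count of 0.5, beside 3.93% of all bins. Without a filter on low bins no bin was called, 0% in MEFs and liver in both directions (the cause was not tested). By limma-voom 22% of kept bins were lower in liver, beside 2.45% of all bins, and the cause was not tested. With 1 ES H3K4me1 library left out, the ES H3K4me1 ratio was 0.999 to 1.06. In MEFs 22.6 to 33.0% of kept bins were lower, beside 20.5 to 32.9% of all bins, and 18.4 to 27.5% higher, beside 22.5 to 31.0%. In liver 51.8 to 70.3% were lower, beside 21.5 to 34.7% of all bins, and 1.12 to 2.23% higher, beside 15.2 to 22.9%. In iPS cells 0 to 2.84% were lower, beside 0 to 5.67% of all bins, and 0 to 0.687% higher, beside 0 to 0.465%. Depth limits the Rfx1 shares, since 3 reads make a call there.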
